A study of Mus musculus with 7 samples.

Results

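Pcdhb14 to Pcdhb22 are the 9 genes at the 3' end of the mouse protocadherin beta cluster, chosen by name from the deposited expression table with no filter on expression. All 9 were found among its 25965 rows, where they stand beside 13 rows for Pcdhb1 to Pcdhb13 and 2 rows that span the protocadherin alpha and gamma clusters. RNA-seq was done on tissue dissected just behind the last visible somite of female E9.5 embryos of the FVB/N strain. The labels call this tissue postsomitic mesoderm, and the series title calls it presomitic mesoderm. The 3 wild-type libraries carried Smchd1 +/+ and the 4 null libraries carried Smchd1 MommeD1/MommeD1, a germline mutation present in every cell of the embryo. No treatment was given to either group in the labels. The design text counts 3 null samples where the labels hold 4. Libraries are lettered here in file order (wild-type A to C, null A to D), since the column names give the genotype but not the sample number.

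Clustered protocadherins are cadherin-type adhesion proteins of the cell surface. Each beta gene is a single large exon with its own promoter, and each encodes a complete protein with an extracellular cadherin repeat region, one membrane span and a short cytoplasmic tail. In neurons a cell switches on only some of these promoters, a choice that involves CTCF, cohesin and DNA methylation, and the resulting mixture of isoforms lets the cell recognise its own processes. Smchd1 is a noncanonical SMC protein of the inactive X chromosome that is also known for silencing autosomal clusters, the clustered protocadherins among them. The MommeD1 allele came from a chemical mutagenesis screen for modifiers of gene silencing.

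The 7 libraries held 19622596 to 23847381 reads in listed genes, which was 28.8% to 37.9% of the denominators the values had been scaled to. The median autosomal gene lay 0.19 log2 higher in the null libraries on the deposited scale. Values were therefore centred on each library's autosomal median, and differences below are on that scale unless another is named. Smchd1 itself had 5572 to 6552 reads in wild-type and 1922 to 2372 reads in null tissue, and fell by 1.67 on the log2 scale (SE 0.07, adjusted p = 0.000106 by limma with Benjamini-Hochberg adjustment). Presomitic mesoderm markers were abundant in every library, with 10 genes summing to 914 to 1280 listed RPM, the reads per 1000000 reads in listed genes. Wild-type B stood apart from the other libraries in some of these markers, and not all in the same direction. Wnt3a, a tail bud Wnt ligand, was at 5.79 listed RPM there and at 46.8 to 74.46 in the other 6. Dll1 (299.64) and Dll3 (141.7) were highest in wild-type B, and Tbx6 (109.49) lay within the range of the others. The neural gene Sox1 was at 58.79 listed RPM in wild-type B and at 4.61 to 27.21 elsewhere. The labels do not say whether each library came from a separate embryo, so the p-values given here speak only of the spread among libraries.

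The 9 genes lie on chromosome 18 of the mm10 build, all on the plus strand, over 73.8 kb. In the coordinates of the deposited table, Pcdhb14 runs from 37447657 to 37451094 and Pcdhb15 from 37473546 to 37476340, with the widest gap among the 9, 22451 bases, between them. Pcdhb16 (37477768 to 37483035), Pcdhb17 (37485021 to 37488289), Pcdhb18 (37489465 to 37494503), Pcdhb19 (37496997 to 37504127) and Pcdhb20 (37504264 to 37507658) follow closely. Pcdhb21 (37513652 to 37518313) and Pcdhb22 (37518353 to 37521419) close the cluster and are 39 bases apart. In GENCODE M21 each is a single-exon protein-coding gene, except that 1 of the 2 transcript models of Pcdhb22 has 2 exons. That model of Pcdhb22 begins at 37517871, inside the row of Pcdhb21. Further same-strand gene models, Gm42416, Gm37013 and Gm37388, overlap all 9 rows, and no opposite-strand gene does.

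The members are close relatives in sequence, which bears on how reads could be told apart. Their coding regions are 2322 to 2406 bases long, and the 36 pairs were 72.8% to 77.3% identical over aligned columns (median 75.1%), with Pcdhb19 and Pcdhb20 the most alike pair. Of all stretches of 50 bases in each row, 88.9% (Pcdhb21) to 98.1% (Pcdhb15) occurred in no other annotated transcript. Of stretches of 100 bases, 92.5% were unique to Pcdhb21, and 99.5% to 100% were unique to each of the other 8. The other 344 stretches of Pcdhb21 lie where the model of Pcdhb22 that begins at 37517871 overlaps its row. They are the same genomic bases in 2 gene models, and they also lower the value of Pcdhb21 at 50 bases. No stretch of 100 bases in the row of Pcdhb22 was shared. Reads of Pcdhb21 are therefore uncertain in their assignment, and so, to a small extent, are those of the others, because neither the read length nor the treatment of reads with several matches is given in the sources used here.

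All 9 genes were transcribed at low levels in both genotypes. In listed RPM per kilobase of row, Pcdhb22 had the highest level in wild-type tissue, 0.783 ± 0.243 (SD, n = 3), followed by Pcdhb17 at 0.448 ± 0.139. Next came Pcdhb16 (0.157 ± 0.0437), Pcdhb19 (0.156 ± 0.0378), Pcdhb20 (0.153 ± 0.0737), Pcdhb21 (0.138 ± 0.0639) and Pcdhb18 (0.116 ± 0.0414), where neighbours in the order differed by less than their SD. Pcdhb14 (0.0781 ± 0.00947) and Pcdhb15 (0.0433 ± 0.0298) were lowest. The order of the mean levels per kilobase was the same in the null libraries. There Pcdhb22 was at 2.13 ± 0.508 (SD, n = 4), Pcdhb17 at 0.727 ± 0.192, Pcdhb16 at 0.499 ± 0.164 and Pcdhb15 at 0.12 ± 0.0332. The other 5 ranged from 0.265 ± 0.0543 (Pcdhb14) to 0.402 ± 0.0756 (Pcdhb19), with neighbours in the order closer together than their SD. The row of Pcdhb19 is more than 7 kb long and that of Pcdhb15 less than 3 kb, so levels per kilobase depend on how much of each row is transcribed.

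**Figure D1:**
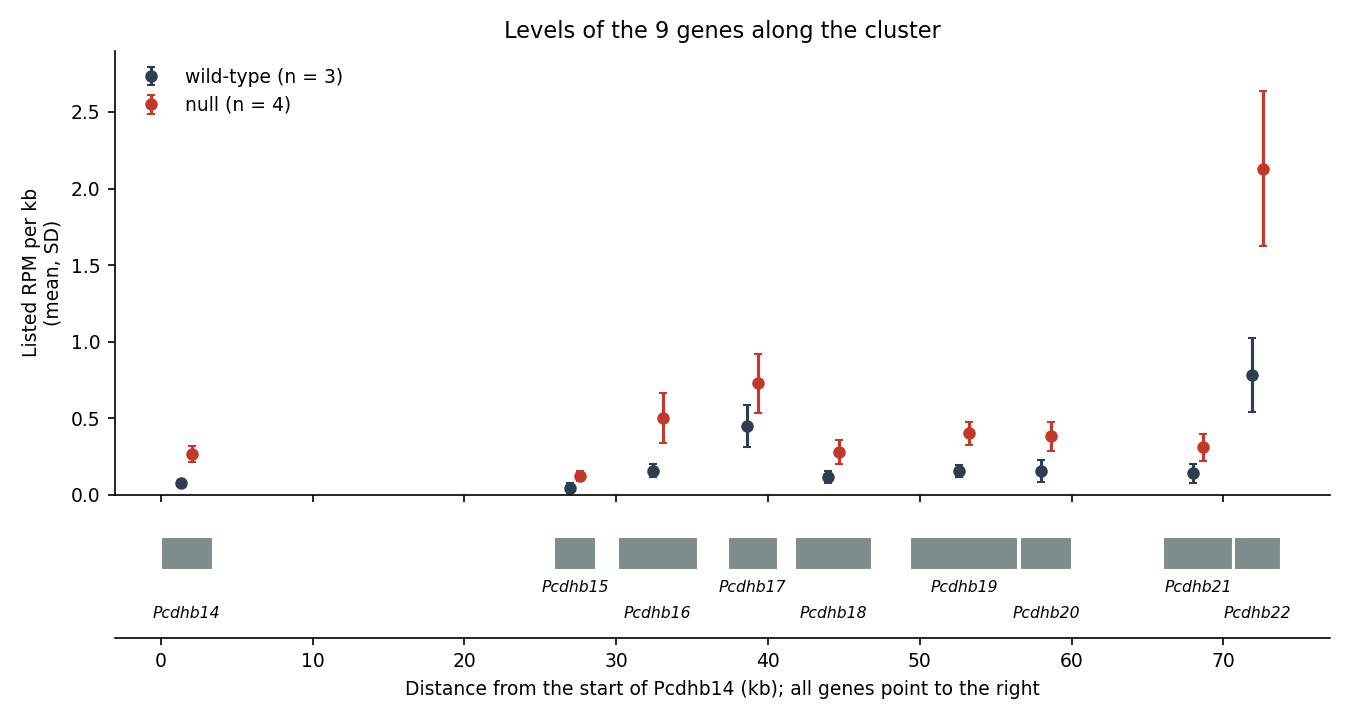
Level of each gene (y axis, listed RPM per kilobase; points are means, bars are SD) against its place along the cluster (x axis, kb from the start of Pcdhb14), with the 9 rows drawn to scale as boxes below. Points of the 2 genotypes are set slightly apart for legibility; the null mean lies above the wild-type mean at all 9 genes, from 0.12 against 0.0433 at Pcdhb15 to 2.13 against 0.783 at Pcdhb22.

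The comparison of genotypes asks whether loss of Smchd1 goes with a change in expression of these genes. Every one of the 9 had a higher mean in the null libraries, with log2 differences of 0.67 to 1.70 and a median of 1.34. None of the 9 was called at an adjusted p of 0.05 over all 17762 genes tested, by limma or by voom, where 0.0394% of all genes were called higher by either method. At an unadjusted p of 0.05, 8 of the 9 were higher in null by limma and 8 by voom, against 7.72% and 7.3% of all genes tested. In 7 of the 9 the lowest null value exceeded the highest wild-type value, which held for 7.01% of all genes tested. The smallest adjusted p of any member was 0.215 by limma.

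Pcdhb22, the last gene of the cluster, had the most reads. It had 113, 196, 161 and 134 reads in null A to D and 56, 34 and 62 reads in wild-type A to C. Every null library was above every wild-type library, and the lowest null library, null A, lay 0.61 log2 above the highest wild-type library. The difference was 1.42 on the log2 scale (SE 0.27, 95% interval 0.79 to 2.04), a 2.67-fold higher level in null. Its unadjusted limma p was 0.000699 and its adjusted p 0.215, and the two-sided exact permutation p was 0.0286, the smallest that 35 assignments of the libraries allow. Libraries of the same genotype differed by more than counting error, with a chi-square per degree of freedom of 8.68 among the null and 4.66 among the wild-type libraries.

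Pcdhb19 and Pcdhb16 were next in reads among the genes whose groups did not overlap. Pcdhb19 had 49, 79, 63 and 75 reads in null A to D against 33, 22 and 17 in wild-type A to C. All null libraries were higher, and the difference was 1.33 log2 (SE 0.27, 95% interval 0.70 to 1.95, limma adjusted p = 0.215, exact permutation p = 0.0286). Pcdhb16 had 37, 83, 69 and 54 reads in null and 22, 20 and 11 in wild-type. Its null libraries were again all higher, with null A nearest to the wild-type values, and its difference was 1.61 log2 (SE 0.36, 95% interval 0.79 to 2.43, limma adjusted p = 0.238, exact permutation p = 0.0286).

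Pcdhb14, the first of the 9 along the chromosome, had the largest difference. It had 16, 23, 25 and 20 reads in null A to D and 6, 5 and 6 in wild-type A to C. The gap between the groups, 1.16 log2 from the lowest null to the highest wild-type library, was the widest of the 9. The difference was 1.70 log2 (SE 0.35, 95% interval 0.90 to 2.51), or 3.25-fold, with a limma adjusted p of 0.215 and an exact permutation p of 0.0286. Spread within each group was no more than counting error would give, at a chi-square per degree of freedom of 0.873 in null and 0.0799 in wild-type. With 5 reads added to every value the difference was 1.10 log2, as small counts are pulled together by such an offset.

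Pcdhb15, its neighbour across the widest gap, had the fewest reads. It had 6, 10, 9 and 6 reads in null and 5, 1 and 2 in wild-type, so its null libraries were all higher but only 1 read separated null A and null D from wild-type A. The difference was 1.64 log2 (SE 0.61, 95% interval 0.24 to 3.03, limma adjusted p = 0.371, exact permutation p = 0.0286). Pcdhb15 reached the mean of 5 reads needed for testing only through its null reads. In the limma fit without that filter its adjusted p was 0.29. With 5 reads added to every value it was 0.58 log2, and without wild-type B, the library with 1 read, it was 1.12 log2 with an unadjusted limma p of 0.0875.

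Pcdhb18 and Pcdhb20 also had groups that did not overlap, by narrower margins. Pcdhb18 had 21, 32, 32 and 45 reads in null A to D and 18, 13 and 7 in wild-type A to C, a difference of 1.24 log2 (SE 0.39, 95% interval 0.34 to 2.13, limma adjusted p = 0.363, exact permutation p = 0.0571). Its highest value was in null D, whereas the other members were highest in null B or null C, apart from Pcdhb20. Pcdhb20 had 19, 35, 30 and 36 reads in null and 19, 8 and 7 in wild-type. Null A and wild-type A thus had the same number of reads, and after centring null A was higher by 0.03 log2. The difference was 1.34 log2 (SE 0.40, 95% interval 0.42 to 2.26, limma adjusted p = 0.354, exact permutation p = 0.0571).

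In Pcdhb21 and Pcdhb17 the groups overlapped. Pcdhb21 had 21, 38, 42 and 32 reads in null A to D and 23, 11 and 8 in wild-type A to C, with null A below wild-type A by 0.10 log2. Its difference was 1.17 log2 (SE 0.41, 95% interval 0.25 to 2.10, limma adjusted p = 0.364, exact permutation p = 0.0857). Pcdhb17 had 45, 77, 52 and 46 reads in null and 36, 20 and 37 in wild-type, and after centring null D was level with wild-type C. It had the smallest difference, 0.67 log2 (SE 0.31, 95% interval -0.04 to 1.39), and was the only member above 0.05 by unadjusted limma p, at 0.0616 (adjusted p = 0.38, exact permutation p = 0.0571).

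**Figure D2:**
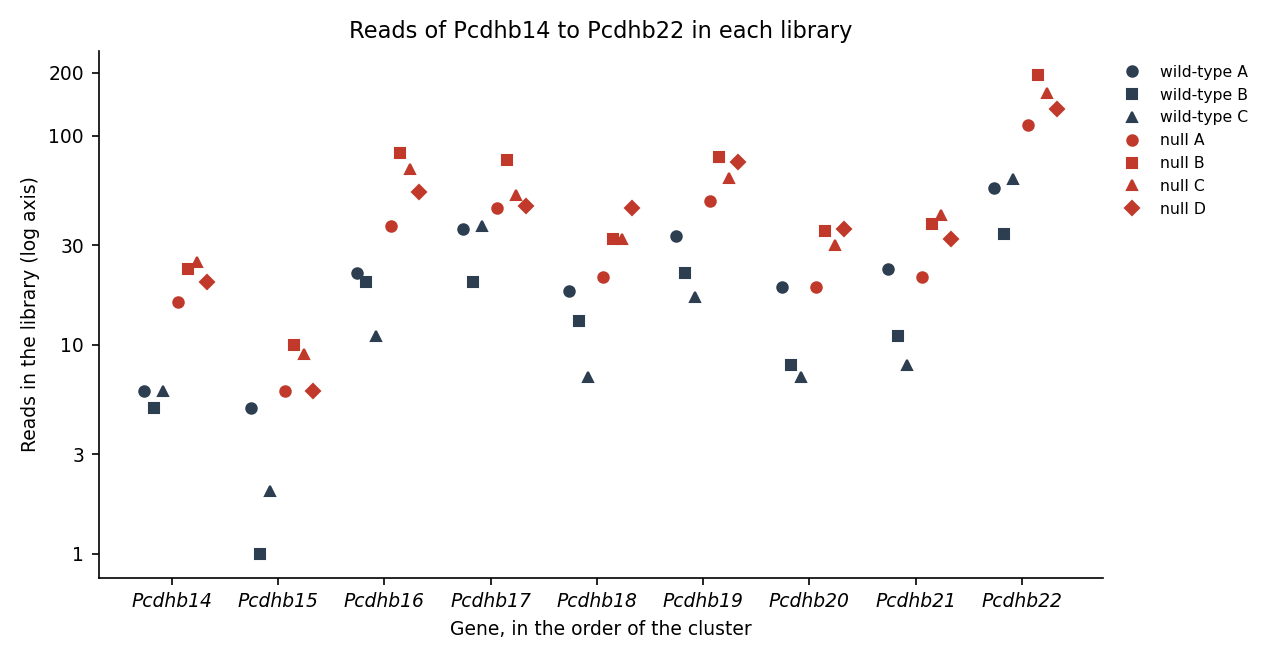
Reads of each gene (y axis, log scale) in every library, with the genes in the order of the cluster (x axis), wild-type libraries in dark blue and null libraries in red, and 1 marker shape per library. Null A (red circles) is lowest of the null libraries at 7 genes after centring. In reads, the wild-type circles (wild-type A) equal it at Pcdhb20 and exceed it at Pcdhb21.

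Members tended to be high or low in the same libraries. Null A lay below the mean of its group for 9 of 9 members and was the lowest null library for 7, while null B was the highest for 5. Wild-type A was the highest wild-type library for 5. Among the 36 pairs of members, deviations from the group means correlated with Pearson's r of -0.35 (Pcdhb17 and Pcdhb18) to 0.95 (Pcdhb17 and Pcdhb22), median 0.43, and r was above 0 in 33 pairs. These r describe 7 libraries in which the members share depth and tissue.

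Summed over the 9 genes, the null libraries A to D had 327, 573, 483 and 448 reads and the wild-type libraries A to C had 218, 134 and 157. In listed RPM the null mean was 19.8 ± 4.38 (SD, n = 4) and the wild-type mean 7.94 ± 1.34 (SD, n = 3), a ratio of 2.49. The lowest null library (14.169, null A) was above the highest wild-type library (9.257, wild-type A). In these bulk samples, more cells that transcribe the genes and more RNA per cell cannot be told apart.

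The column names end in the number 18, 21 or 22, which is not explained in the sources used here, and each number occurs in both genotypes. Among the libraries numbered 18 (null A and wild-type B) the null library was higher for 9 of 9 members, by 0.46 to 2.35 log2 (median 0.94). Among those numbered 21 (null D and wild-type C) it was higher for 8 of 9, by up to 2.36 (median 1.67), the exception being Pcdhb17 at -0.01. Among those numbered 22 (null B and C against wild-type A) it was higher for 9 of 9, by 0.79 to 2.02 (median 0.95). The summed level was lowest at number 18 in both genotypes. Null D, wild-type B and wild-type C also share the first number of their names, and within these 3 libraries null was higher for 9 of 9 by 0.44 to 1.95 (median 1.55). Null B and null C share both their first and their last number and had the highest summed levels, so they may be less independent than the count of 4 null libraries assumes. With only 1 of them, the median difference of the members was 1.26 log2 (without null B) or 1.32 (without null C), 7 or 6 of 9 had an unadjusted limma p under 0.05, and 7 of 9 did not overlap in either case. The shares of all genes for these counts are not given here, and groups with fewer libraries separate more often by chance. Each of the contrasts within a number rests on 1 or 2 libraries per genotype and has no test. The shares of all genes higher in null within a number are not given here. With all libraries, 66.4% of genes in the read range of the members had a higher mean in null. The contrasts at number 18 and at the shared first number include wild-type B, which stood apart in tissue markers.

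**Figure D3:**
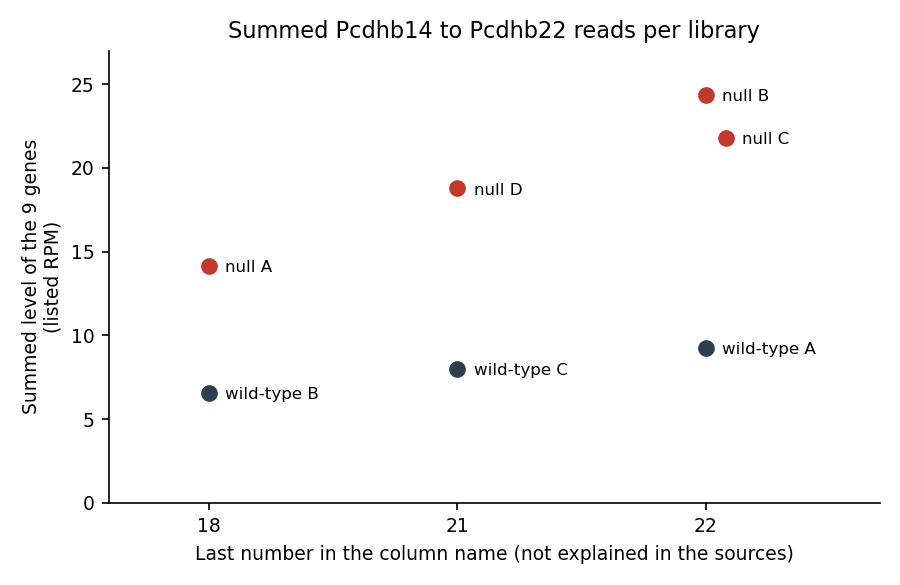
Summed level of Pcdhb14 to Pcdhb22 in listed RPM (y axis, reads per 1000000 reads in listed genes) in each library, placed by the last number of its column name (x axis); red points are null and dark points wild-type libraries, and null C is set slightly aside from null B. At each number the null libraries are above the wild-type library, from 14.169 against 6.57 at number 18 to 24.353 and 21.818 against 9.257 at number 22.

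Wild-type B, which stood apart in tissue markers, also had the lowest summed level of the 9 genes, 6.57 listed RPM. Without it the median difference of the members was 1.20 log2, 7 of 9 kept an unadjusted limma p under 0.05, and 7 of 9 still had groups that did not overlap. Pcdhb22 was then at 1.19 log2 (unadjusted p = 0.00205) and Pcdhb17 at 0.42 (unadjusted p = 0.199). The shares of all genes that passed the same thresholds without wild-type B are not given here. Groups with fewer libraries separate more often by chance, so the 7.01% of genes that did so with all libraries is not the background of this count. Without null A, the lowest null library, the median was 1.54 log2.

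The make-up of the 9-gene pool overlapped between genotypes for most members. Pcdhb22 supplied 29.9% to 34.6% of the summed reads in null and 25.4% to 39.5% in wild-type. Pcdhb19, Pcdhb16 and Pcdhb17 supplied most of the rest. The shares of 7 members overlapped between genotypes. Pcdhb14 had a larger share in null (4.0% to 5.2%) than in wild-type (2.8% to 3.8%), and Pcdhb17 a smaller one (10.3% to 13.8% against 14.9% to 23.6%). Row lengths differ, so these are shares of reads and not of transcripts.

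**Figure D4:**
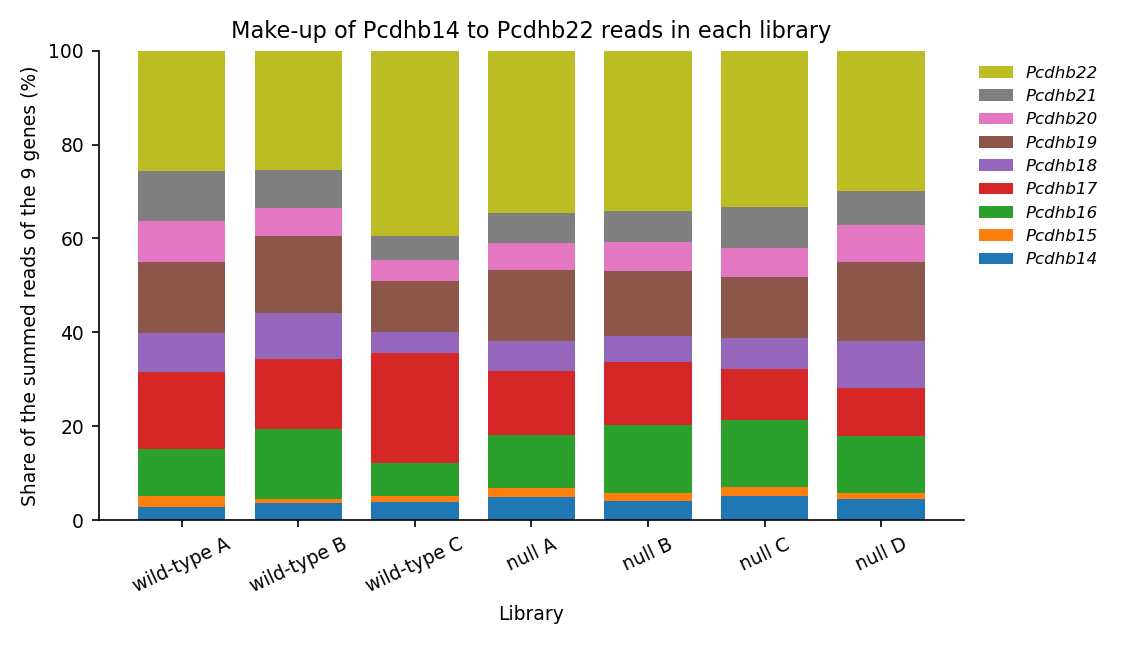
Share of each gene in the summed reads of Pcdhb14 to Pcdhb22 (y axis, percent) for each library (x axis), stacked in the order of the cluster from Pcdhb14 at the bottom. The Pcdhb17 band is narrower in the 4 null libraries (10.3% to 13.8%) than in the 3 wild-type libraries (14.9% to 23.6%), and Pcdhb22 takes 25.4% to 39.5% throughout.

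The 5' genes of the same cluster, Pcdhb1 to Pcdhb13, had fewer reads and a larger median difference, which was not tested against that of the 9. Of the 13, 9 had enough reads to be tested, and all 9 had a higher mean in null, with a median of 2.06 log2. None was called after adjustment, 7 of 9 were higher at an unadjusted p of 0.05 and 6 did not overlap between genotypes. Testing required a mean of at least 5 reads over all libraries. Pcdhb4, Pcdhb5, Pcdhb8 and Pcdhb12 reached that mean only through their null reads, so these counts and the median depend in part on the filter. Pcdhb2 had 44 to 61 reads in null and 6 to 18 in wild-type (2.21 log2, limma adjusted p = 0.147), and Pcdhb11 had 25 to 78 against 1 to 8 (3.51 log2, limma adjusted p = 0.216). Pcdhb3 had 29 to 52 reads against 5 to 15 (2.06 log2). Pcdhb12 had no read in any wild-type library and 47 over the null libraries, at least 10.8-fold higher against a floor of 3 reads over the wild-type group. Pcdhb13, the nearest listed gene upstream of Pcdhb14, had 3 to 8 reads in null and 0 to 5 in wild-type and was too low to test. Of all reads in Pcdhb1 to Pcdhb22, Pcdhb14 to Pcdhb22 held 74.4% to 77.7% in wild-type and 64.7% to 68.1% in null, ranges that did not overlap. No test was made of that difference.

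The alpha and gamma clusters are each read from 1 row. The row named Pcdhac1, which spans the alpha cluster upstream, had 184 to 400 reads in null and 129 to 160 in wild-type (0.79 log2, limma adjusted p = 0.335). The row named Pcdhga11, which spans much of the gamma cluster downstream, had 6088 to 6975 reads in null and 5388 to 6693 in wild-type (95% interval of the log2 difference -0.11 to 0.10, limma adjusted p = 0.967). On the deposited scale without centring that difference was 0.19 log2. Between the beta and gamma clusters lie Slc25a2, a mitochondrial ornithine carrier gene, with a difference of -0.14 log2 after centring and 0.05 on the deposited scale, and Taf7, which encodes part of the TFIID complex that starts transcription by RNA polymerase II. Taf7 had 819 to 998 reads in null and 868 to 1061 in wild-type, a difference of -0.19 log2 after centring (adjusted p = 0.394 by limma) and 0.00 on the deposited scale. Per 100 reads of Taf7 in the same library, which needs no scaling between libraries, the 9 members had 17.8 ± 2.81 reads in wild-type (SD, n = 3) and 49.4 ± 11.2 in null (SD, n = 4). Set against Taf7 in this way, all 9 members had groups that did not overlap. Taf7 was itself lower in every null library after centring, so this ratio lifts null values relative to the centred scale. The share of all genes whose groups did not overlap against Taf7 is not given here. Per 100 reads of Pcdhga11 the 9 had 2.88 ± 0.391 and 6.97 ± 1.21 reads.

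**Figure D5:**
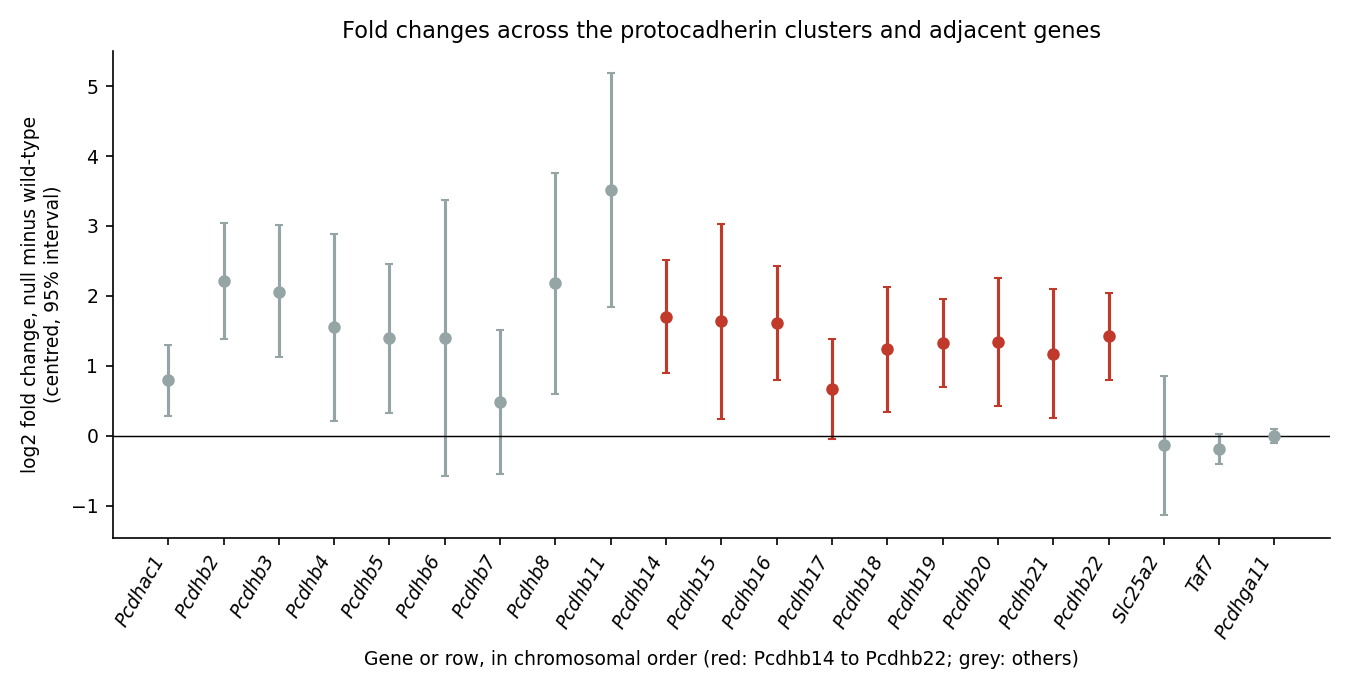
Log2 difference between null and wild-type libraries (y axis, centred values; points are limma estimates and bars 95% intervals) for Pcdhb14 to Pcdhb22 in red and for other tested rows of the protocadherin clusters and the genes between them in grey, in chromosomal order (x axis). Pcdhb12, with no wild-type read, is left out; the red points lie between 0.67 and 1.70, the grey beta genes between 0.48 and 3.51, and Slc25a2, Taf7 and Pcdhga11 near 0.

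Over the whole table, genes with few reads tended to lie higher in null. The 4573 genes with a mean read number in the range of the members (5.6 to 108) had a median difference of 0.22 log2, against -0.01 for all genes tested and 1.34 for the 9. Of these 4573, 9.88% were higher at an unadjusted limma p of 0.05 and 9.14% did not overlap upward. The 426 other tested genes of chromosome 18 had a median of -0.01 log2, with 7.28% higher at an unadjusted p of 0.05 and 7.04% not overlapping upward.

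Protocadherins outside the clusters had differences of -0.46 to 1.22 log2, with a median of -0.03. Of 12 listed, 11 were tested, none was called after adjustment and 2 were higher at an unadjusted limma p of 0.05. The highest values were those of Pcdh10 (1.22 log2, unadjusted p = 0.073), Pcdh17 (1.08, unadjusted p = 0.0178) and Pcdh11x (1.07, unadjusted p = 0.00451), the last with groups that did not overlap. The most abundant were Pcdh19 (-0.03 log2 after centring and 0.16 on the deposited scale), Pcdh1 (0.21) and Pcdh18 (-0.34). Among 13 of 15 regulators matched by name, including Ctcf, the cohesin genes and DNA methyltransferases, none was called after adjustment. Stag2 and Smc1a, cohesin subunits encoded on the X chromosome, were higher at an unadjusted p of 0.05, by 0.23 and 0.17 log2. Rad21, Trim28 and Dnmt1 had values of -0.13, -0.17 and -0.11 log2 at the same threshold, which became 0.06, 0.02 and 0.08 on the deposited scale.

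Markers of other cell types were followed because clustered protocadherins are best known in neurons. The 14 neural genes matched of 15 summed to 124 to 262 listed RPM in null and 171 to 387 in wild-type, so the ranges overlapped. The highest value was in wild-type B, the library that stood apart in tissue markers, and the other wild-type libraries lay within the null range. Of the 13 tested, only 1 did not overlap upward, which held for 7.01% of all genes tested. It was Elavl3, an RNA-binding protein of early neurons. Sox1, Sox2, Pax6, Irx3 and Tubb3 were instead highest in wild-type B. Dcx, a microtubule protein of young neurons, was at 3.03 to 5.78 listed RPM in null and 1.13 to 3.06 in wild-type, ranges that overlapped. Its highest values were in null C and null B. Olig2 was at 0 reads in these same libraries, and Dbx1 had 0 to 2 reads in every library. Notochord and hindgut markers had higher sums in the null libraries. The 6 notochord genes summed to 309 to 408 listed RPM in null and 164 to 291 in wild-type, with 3 of 6 not overlapping upward. The 5 hindgut genes summed to 239 to 280 and 132 to 228, with 3 of 5 not overlapping upward. Of all genes tested, 7.01% did not overlap upward. In both lists the lowest wild-type sum was in wild-type B, the library that stood apart, and the highest in wild-type C. The lists are not separate readings, since T stands also in the presomitic list and Foxa2 in both of these. T made up 61.5% to 74.8% of the notochord sum, and without it the other 5 genes summed to 99.2 to 123.9 in null and 63.1 to 73.3 in wild-type. Without Foxa2 the hindgut genes summed to 224.0 to 263.5 and 121.6 to 217.8. No notochord or hindgut marker was at 0 reads in any library. Blood markers (172 to 232 against 155 to 311) and endothelial markers (389 to 539 against 265 to 475) overlapped. The part of tissue composition in the differences of the 9 genes was not tested.

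By Pearson's r of centred log2 values over the 7 libraries, the genes most like the summed level of the 9, among 15678 with a mean of at least 20 reads, were Gm14378 (0.997), Kif16b (0.991), B4galt4 (0.991), Gm5148 (0.989) and Nr1h3 (0.986). Each lies on another chromosome. Kif16b, a kinesin of endosome transport, had 1334 to 1531 reads in null and 930 to 1213 in wild-type (0.34 log2), a smaller difference than any member. The r of Pcdhb3, Pcdhb11 and Pcdhb2 were 0.96, 0.95 and 0.94. Since the libraries form 2 groups, these r rest largely on the difference between genotypes and have no test.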

How the data were processed

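The submitters' processing notes name TopHat2 2.0.12, bcl2fastq, edgeR and build mm10, without their roles. How reads were counted, with what annotation and with or without strand, is not given in the sources used here. Values that the authors deposited are log2 RPM (reads scaled to a library denominator), per the file headers, for 7 libraries. Whole reads were recovered from the low-value steps: 100% of values under 1000 reads were whole within 0.01, and 0 reads was listed as 0.9 read. No pseudocount was added.

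Values were centred on the median of 13500 autosomal genes whose log2 value exceeded 0 in 3 or more libraries. Genes with a mean of at least 5 reads (17762, all 9 members among them) were tested with limma 3.58.1 (prior trend, R 4.3.3) and Benjamini-Hochberg adjustment at 0.05, and single members by exact permutation. The method was run on simulated reads with the same spread setting for every gene and no effect shared by genes within a library. That run cannot show how the method does where libraries differ as they do here. Alternatives were other scalings, filters, pseudocounts, priors, voom and leaving out each library; a block on column numbers and levels relative to Taf7 were added after seeing the data. A count test planned for raw counts was not run. Positions were matched to GENCODE M21. Tables and plots used matplotlib 3.10.9, pandas 2.3.3, numpy 2.4.6 and Python 3.11.15.

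The members, gene lists and tests were chosen with earlier results of these data known. Named were all 9 members, Smchd1, up to 5 other clustered protocadherin rows by read number, the genes between the clusters and the nearest listed neighbours, up to 3 unclustered protocadherins by read number, regulators under an unadjusted p of 0.05 and the 5 genes most like the summed level. Pcdhb12, Pcdh10, Pcdh17, Pcdh11x and the markers singled out were named after their values were seen.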

Additional observations from a re-analysis of the deposited data

Results flagged for a closer look

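In Pcdhb20, null A was far below the other 3 null libraries: its gap to the nearest of them was 0.83 of the range of all 4 on the centred log2 scale, just over the critical value of Dixon's test for 4 samples. Chance flags about 1 in 20 groups of that size, and the null libraries of 9 genes were examined. Null A was also below the group mean for the other 8 members.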

How the results depend on the processing

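No member was called at an adjusted p of 0.05 under any of 18 alternatives, and 153 of 153 member estimates kept their direction and their side of the threshold. The smallest adjusted p was 0.0796, without a prior trend. The count of members at an unadjusted p under 0.05 ran from 6 (without null C) to 9, and the median difference from 0.97 (5 reads added) to 1.54 log2, among fits that held all 9. Only 7 members entered at a mean of at least 20 reads, and only Pcdhb19 and Pcdhb22 with a log2 value above 0 required in 3 libraries. Members whose groups did not overlap numbered 7 or 8, and 9 relative to Taf7, which was itself lower in every null library after centring. The shares of all genes that did so under these alternatives are not given here. Over all genes, 7 were called higher, 16 with scaling to listed reads, 4 on the deposited scale, 2 without a prior trend, and 3 to 9 when 1 library was left out. No paired analysis was possible because the column names do not carry the replicate numbers of the labels, so libraries could not be matched by those. A separate fit with the unexplained last number of the column names as a block was chosen after seeing the data; in it the median was 1.27 log2 and the smallest adjusted p 0.11. Depth limits Pcdhb15 most, at 1 to 10 reads per library. The intervals of the log2 differences come from the limma fit, which uses the spread among libraries. The floor on reads given for Pcdhb12 covers counting error only.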
